A study of Mus musculus with 30 samples.

Results

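Livers of 15 db/db mice fed sebacic acid were set against each other, mouse by mouse, to find which transcripts differed most between treated animals and which moved together. They are the whole SA_15% group, chosen by its label alone, and make up 15 of the 30 arrays of the series. The SA_15% mice ate chow carrying 77.6 g of sebacic acid per kg of food, equal to 15% of dietary energy and, by the labels, about 9 g per kg body weight per day, for 6 weeks. The 15 Ctrl mice ate that chow with no sebacic acid. All 30 animals were male BKS.Cg-m+/+Leprdb/J mice, 6 to 8 weeks old before they were habituated and put on the diets, kept 1 to a cage and homozygous for the leptin receptor mutation Leprdb. The obese and diabetic background was thus shared by both groups, and no lean mouse was included. The treatment text attached to the Ctrl samples also names sebacic acid, and the label for the agent was used instead. Each array held the whole-liver RNA of 1 mouse, and livers are called here by the number that the labels give them, whose meaning the labels do not state.

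Sebacic acid is a medium-chain dicarboxylic acid that is taken up by the liver and shortened there by beta-oxidation. Mice of one strain on one diet still differ in liver transcripts that follow feeding, the hour of killing, infection and stress. Cholesterol synthesis enzymes are set together by the transcription factor SREBP-2, interferon gamma induces guanylate-binding proteins and antigen presentation genes, cytokines raise acute phase proteins, and the factors ATF4 and CHOP raise a set of stress genes when protein folding or amino acid supply is disturbed. NRF2 raises enzymes that handle reactive electrophiles.

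The arrays were MouseRef-8 BeadChips with 25697 probes. A probe was kept when its detection p was under 0.05 on all 15 SA_15% arrays, which left 9655 probes, of which 9085 carried a gene name and stood for 6864 genes. Each gene is represented by its brightest probe. Levels are log2 intensities after quantile normalization of the 30 arrays together, so a difference of 1 is a doubling. Mean intensity before normalization was 326.6 to 498.3 on SA_15% arrays and 313.9 to 451.1 on Ctrl arrays, and 11213 to 11783 probes were detected on SA_15% arrays against 10984 to 11697 on Ctrl arrays. Any 2 SA_15% arrays correlated at 0.9889 to 0.9959 over all 25697 probes. Hepatocyte markers were the steadiest of the cell type markers: 10 of the 13 on the array were detected on all SA_15% arrays, and 1 of these 10, Ass1, was among the 686 most variable genes (9.99% of the 6864, with an SD over 0.221).

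Most genes hardly differed between the treated mice. The median SD over the 6864 genes was 0.13 in SA_15% livers and 0.14 in Ctrl livers, and 2607 genes (37.98%) had the larger SD in SA_15% livers. An SD over 0.5 was found for 67 genes in SA_15% livers and 66 in Ctrl livers. Of the 100 most variable genes of SA_15% livers, 58 (58%) were also among the 100 most variable of Ctrl livers. By these counts sebacic acid livers were not more uneven as a whole, and the genes described next are those at the top of the range.

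Galectin-3, lipocalin-2 and the stress protein p8 led the list of the 20 most variable genes. Lgals3, the galectin of activated macrophages and injured epithelium, ran from 7.92 over a median of 10.35 to 11.73 in SA_15% livers, a 14.05-fold range, and from 7.10 over 7.55 to 8.91 in Ctrl livers. It lay above the highest Ctrl liver in 10 of 15 SA_15% livers and inside the Ctrl range in the rest. Lcn2, which binds bacterial siderophores and is made by the liver in the acute phase, ran from 9.59 over 11.07 to 13.10 in SA_15% livers and from 9.13 over 10.46 to 12.09 in Ctrl livers, with most values overlapping. Nupr1, the small nuclear stress protein p8, ran from 6.81 over 7.69 to 9.75 in SA_15% livers and from 6.27 over 6.44 to 6.80 in Ctrl livers, without overlap. In bulk tissue a change in the number of cells that hold a transcript cannot be told apart from a change in the amount per cell, and this applies to every level given here.

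**Figure D1:**
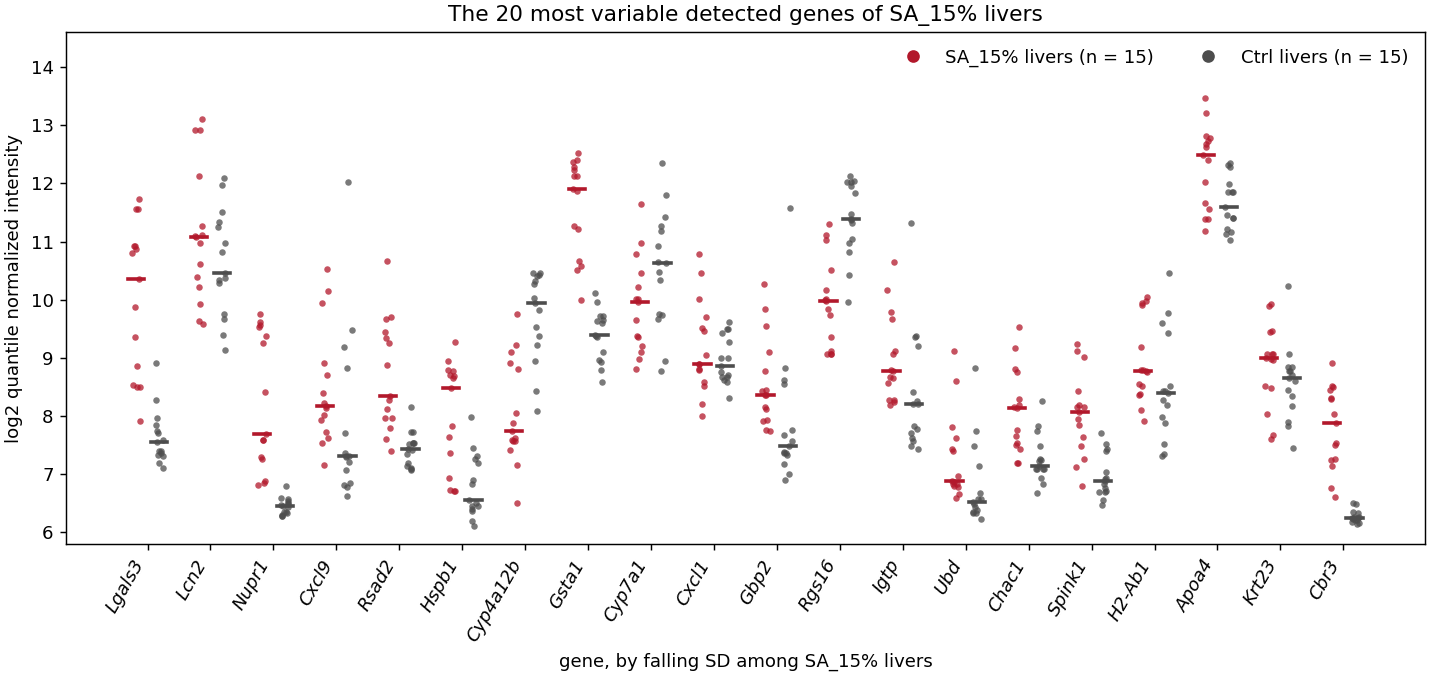
Log2 level (y axis) of the 20 genes with the largest SD among SA_15% livers, in falling order of that SD, with 1 point per mouse: SA_15% livers in red on the left of each pair, Ctrl livers in grey on the right, and a bar at each median. Lgals3, Nupr1, Gsta1 and Cbr3 have lower medians and smaller SDs in Ctrl livers than in SA_15% livers, with Ctrl SDs of 0.47, 0.14, 0.44 and 0.11, while Cxcl9, Gbp2 and Igtp reach higher in single Ctrl livers than in any SA_15% liver.

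The mean level was tested with limma over all 9655 probes, where 3792 (39.3%) passed an adjusted p of 0.05, 1839 higher in SA_15% livers (19%) and 1953 lower (20.2%). With arrays scaled to a common median instead, 690 were higher and 2762 lower. Among the 20 most variable genes, 9 rose, 2 fell and 9 did not pass. Those that rose were Lgals3, Nupr1, Rsad2, Hspb1, Gsta1, Chac1, Spink1, Apoa4 and Cbr3, and those that fell were Cyp4a12b and Rgs16. A large spread between treated mice occurred with and without a shift of the mean. The SD of the gene ranked 20, Cbr3, was 0.70, and that of the gene ranked 21, Elovl6, was 0.69, so the list has no gap at its end.

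Whether a gene was more uneven in treated than in untreated mice was tested with limma on the distance of each liver from its group's median. Of 9655 probes, 7 (0.0725%) were more spread in SA_15% livers and 1 (0.0104%) less, while 166 and 371 probes passed an unadjusted p of 0.05. Since the most variable genes were picked for their SD in SA_15% livers, the larger SD that 15 of the 20 and 63 of the 100 had there is partly a result of that choice. Cbr3, a carbonyl reductase, spanned 6.60 to 8.91 in SA_15% livers (SD 0.70) and 6.14 to 6.51 in Ctrl livers (SD 0.11), with an adjusted p of 0.00414. It was detected on 13 of 15 Ctrl arrays. Srxn1, the sulfiredoxin that reactivates oxidised peroxiredoxins, spanned 9.22 to 11.01 in SA_15% livers (SD 0.66) and 8.62 to 9.16 in Ctrl livers (SD 0.17), with an adjusted p of 0.00633. Nupr1 had SDs of 1.16 in SA_15% livers and 0.14 in Ctrl livers (adjusted p = 0.0237). Its Ctrl levels of 6.27 to 6.80 were about as low as those of Cbr3, although all 15 Ctrl arrays detected it. The calls for Nupr1 and for Cbr3 were lost after a background correction. Tnfrsf12a, the receptor of the cytokine TWEAK, had SDs of 0.52 in SA_15% livers and 0.22 in Ctrl livers (adjusted p = 0.0237). All 15 SA_15% livers lay above the highest Ctrl liver for Cbr3, Srxn1 and Nupr1, and 13 did for Tnfrsf12a. The call for Srxn1 was lost without SA_15% liver 1, 7, 10 or 15. That for Nupr1 was lost without SA_15% liver 15 or Ctrl liver 1, 10, 12 or 15. Tnfrsf12a lost its call without any 1 of 11 livers and also after the background correction. Cbr3 kept its call with each single liver left out, though not after the background correction. The call for Lgals3 itself missed the threshold (adjusted p = 0.0944), with SDs of 1.30 in SA_15% livers and 0.47 in Ctrl livers.

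Smox, which oxidises spermine, and Tmem43, a nuclear envelope protein, passed by a probe that was not their brightest (adjusted p = 0.00633 and 0.0416), while the brightest probe of each had an adjusted p of 0.0842. The remaining probe has no gene name and was detected on 6 of 15 Ctrl arrays, so its call rests on Ctrl values at the detection floor. Slc34a2, a phosphate carrier, was the gene that was less spread, from 6.17 to 6.56 in SA_15% livers (SD 0.12) and from 6.07 to 7.11 in Ctrl livers (SD 0.34), with an adjusted p of 0.0237. Its levels were close to the detection limit, 14 of 15 Ctrl arrays detected it, and the call was lost without Ctrl liver 1, 4, 5, 7, 9, 10, 12, 13 or 15. Car3, the muscle-type carbonic anhydrase that is abundant in male liver, had SDs of 0.22 in SA_15% livers and 0.54 in Ctrl livers and did not pass (adjusted p = 0.291). The count of 8 called probes was sensitive to the processing. It was 1 after a background correction with the array's negative-control estimate and 3 with a trended and robust prior. It was 4 when probes had to be detected on all 30 arrays, and it ran from 4 to 18 as single livers were left out. Without Ctrl liver 1, 10, 12 or 15 it was 4, without Ctrl liver 13 it was 5, and without SA_15% liver 1, 2, 5, 6, 8, 10, 11, 13 or 14 it was 13 to 18.

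**Figure D2:**
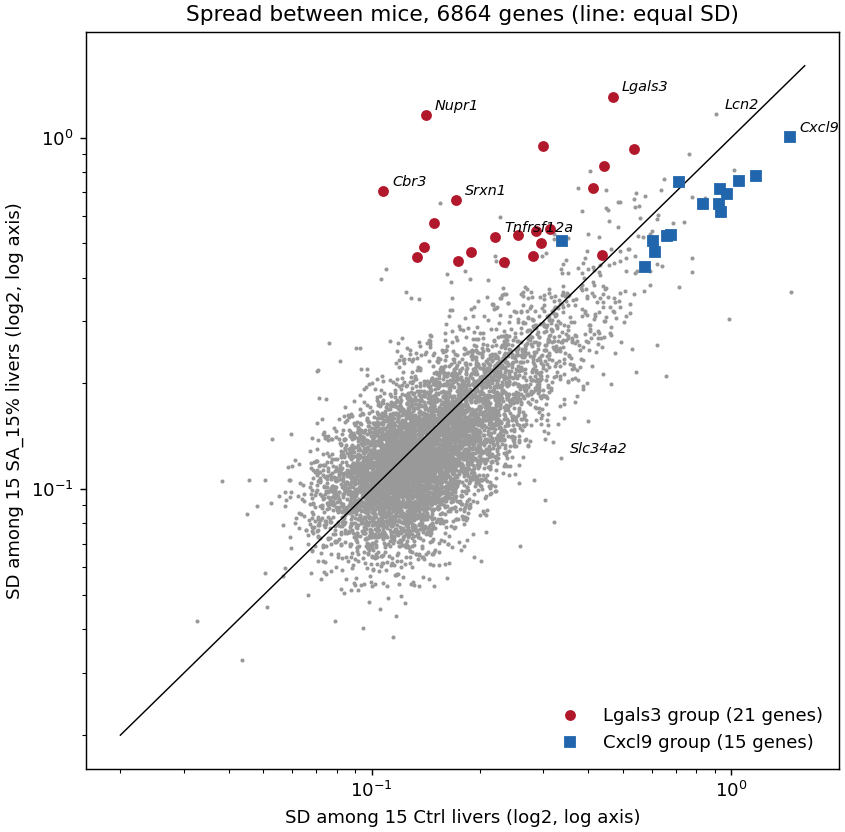
SD of each of 6864 genes among 15 SA_15% livers (y axis) and among 15 Ctrl livers (x axis), on log axes in log2 units, with a line of equal SD. The 21 genes that vary with Lgals3 (red) all have the larger SD in SA_15% livers, while of the 15 genes that vary with Cxcl9 (blue) 2 do.

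The 100 most variable genes were clustered on their correlation across the 15 SA_15% livers (average linkage, cut at a mean correlation distance of 0.4), and clusters of 4 or more genes were kept. Of the 100 genes, 68 fell into 6 such sets, each named here by its most variable gene: 21 with Lgals3, 17 with Cxcl1, 15 with Cxcl9, 6 with Lcn2, 5 with Apoa4 and 4 with Elovl6. Since the sets were built from SA_15% livers, correlations and slopes of members in those livers describe the sets and test nothing. The same genes in Ctrl livers, the group means and genes outside the 100 were not used in building them. The choice by SD and detection in SA_15% livers can still favour genes with a higher mean there. The mean correlation between 2 genes was 0.11 over all 100 genes in SA_15% livers and 0.04 in Ctrl livers. Lcn2 and Cxcl9 showed no relation to Lgals3 that passed, since the slope of Lcn2 on Lgals3 was -0.01 ± 0.21 (SE, n = 15) and that of Cxcl9 on Lgals3 was 0.05 ± 0.18. Different mice stood out in different sets.

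The numbers of the livers ran with the level of some genes, which was noticed after the values were seen. Elovl6, the elongase that makes stearate, was at 9.59 to 10.29 in SA_15% livers 11 to 15 and at 10.62 to 12.12 in SA_15% livers 1 to 10. Acss2, an acetyl-CoA synthetase, was at 11.96 to 12.11 in Ctrl livers 6 to 10 and at 10.58 to 10.95 in the other Ctrl livers. The values left a gap in both cases. With the livers taken in runs of 5 numbers (1 to 5, 6 to 10 and 11 to 15), the share of a gene's variance between runs had a median over all 6864 genes of 17% in SA_15% livers and 23.7% in Ctrl livers. It was 65.4% in SA_15% and 35.3% in Ctrl livers for the set of Elovl6, 34.5% in SA_15% and 79.7% in Ctrl livers for that of Apoa4, and 27.4% in SA_15% and 60.6% in Ctrl livers for that of Cxcl1. For the sets of Lgals3, Cxcl9 and Lcn2 it was 15.1%, 11.2% and 9.32% in SA_15% livers and 23.7%, 23.1% and 20.8% in Ctrl livers, at or below the median of all genes. Each relation to a leading gene was therefore also fitted with the runs as a covariate, and where this changed a call described here, it is said there. What the runs stand for was not tested.

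**Figure D3:**
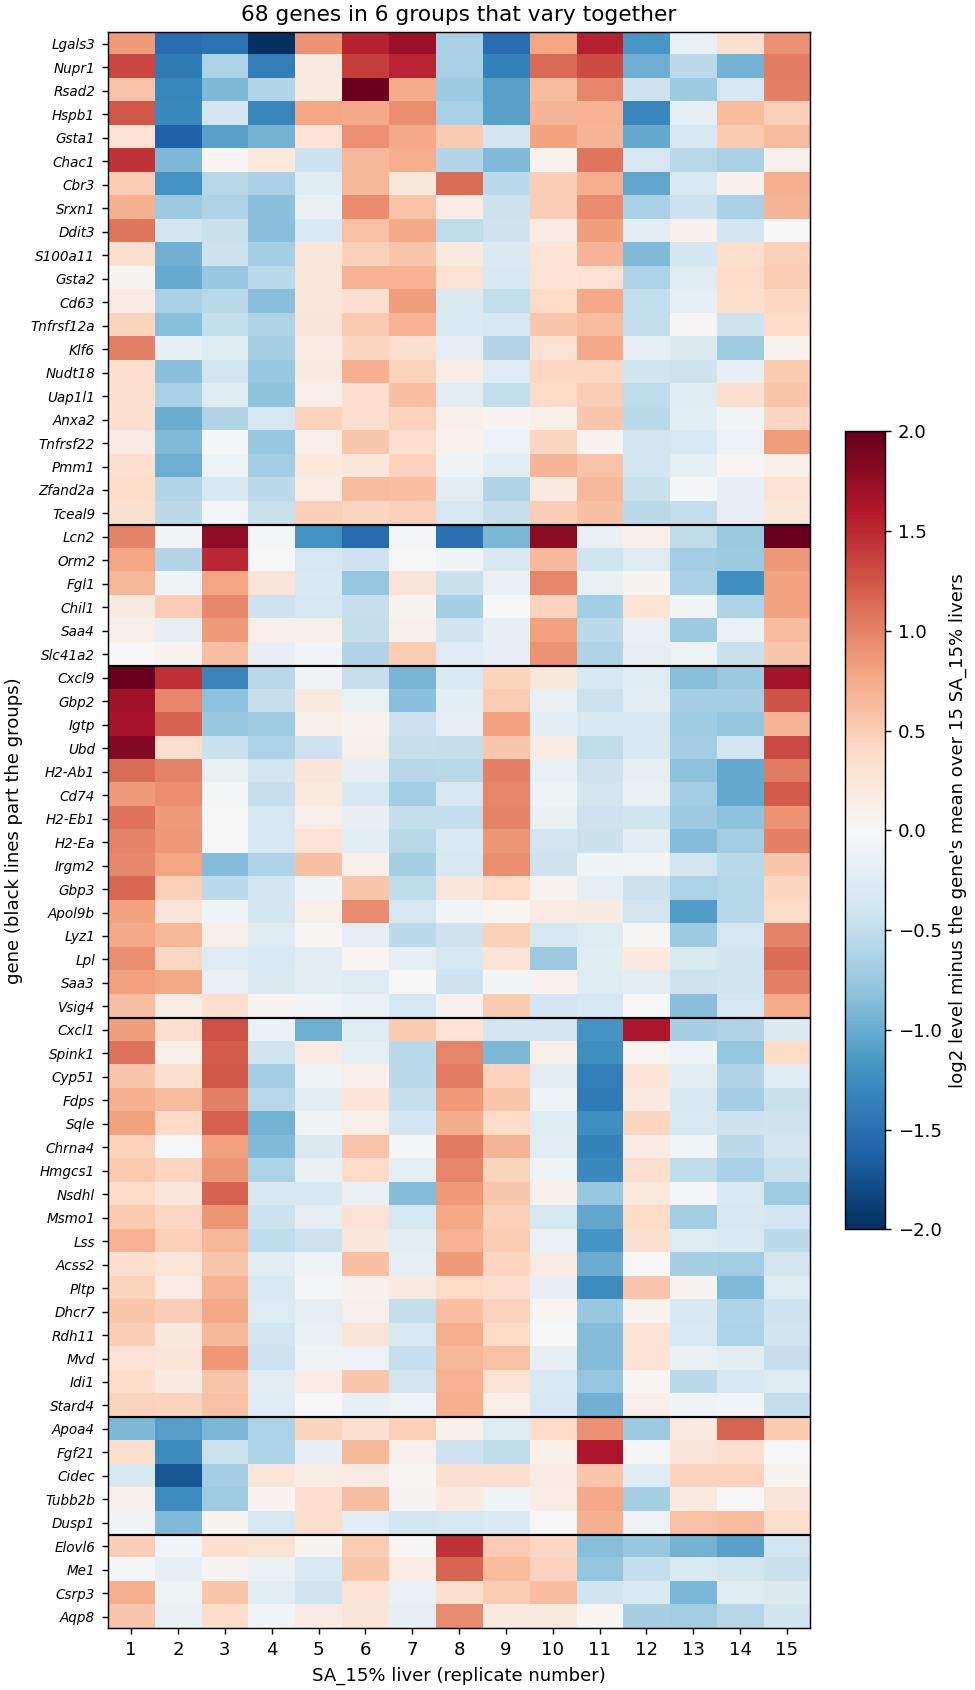
Level of 68 genes (rows) in the 15 SA_15% livers (columns, by replicate number) as log2 difference from the gene's mean over those livers, with the colour scale ending at -2 and 2. Black lines part the sets of Lgals3, Lcn2, Cxcl9, Cxcl1, Apoa4 and Elovl6 from top to bottom, and liver 2 is low in the Lgals3 and Apoa4 sets, livers 1 and 15 are high in the Cxcl9 set and liver 11 is low in the Cxcl1 set.

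The set of Lgals3 held Nupr1, Chac1 and Ddit3, known from the stress response of ATF4 and CHOP, beside the glutathione transferases Gsta1 and Gsta2 and genes of other roles. All 21 rose in SA_15% livers, where 47 of the 100 clustered genes and 19% of all probes did. Since the 100 were chosen by SD and detection in SA_15% livers, this count is a description. Their mean correlation was 0.80 in SA_15% livers (lowest pair 0.41) and 0.15 in Ctrl livers (lowest pair -0.80). The median SD of the 21 was 0.54 in SA_15% livers and 0.26 in Ctrl livers. Lgals3 rose by 2.37 ± 0.33 (SE, n = 15 each), limma's adjusted p = 1.185e-06. Among stress genes, Nupr1 rose by 1.79 ± 0.28 (adjusted p = 7.054e-06). Chac1, which degrades glutathione, ran from 7.19 over 8.13 to 9.54 in SA_15% livers and from 6.68 over 7.15 to 8.26 in Ctrl livers, above the Ctrl range in 5 of 15. Ddit3, which encodes CHOP, ran from 6.73 over 7.34 to 8.63 in SA_15% livers and from 6.65 over 6.92 to 7.18 in Ctrl livers, above the Ctrl range in 11 of 15. The other SA_15% livers, most of them for Chac1 and a minority for Ddit3, lay within the Ctrl range. These livers were not the same for the 2 genes. Liver 4 was the lowest SA_15% liver for Ddit3 but lay above the Ctrl range for Chac1 (8.29). For Nupr1 all 15 SA_15% livers lay above the Ctrl range.

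Antioxidant and conjugating enzymes were also members. Gsta1, an alpha-class glutathione transferase, ran from 9.99 over 11.91 to 12.52 in SA_15% livers and from 8.59 over 9.39 to 10.11 in Ctrl livers. It rose by 2.21 ± 0.22 (adjusted p = 4.749e-09), and 14 of 15 SA_15% livers lay above every Ctrl liver. Gsta2 ran from 10.98 over 12.23 to 12.68 in SA_15% livers and from 10.51 over 11.06 to 11.53 in Ctrl livers. Probes of Gsta1 and Gsta2 may not separate these near-identical transcripts. Cbr3 rose by 1.52 ± 0.17 (adjusted p = 3.183e-08) and Srxn1 by 1.17 ± 0.16 (adjusted p = 1.346e-06). Nudt18, a hydrolase of oxidised nucleotides, ran from 8.42 over 9.41 to 9.97 in SA_15% livers and from 8.30 over 8.55 to 8.70 in Ctrl livers.

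The remaining members were surface, cytoskeletal and chaperone genes. Hspb1, the small heat shock protein Hsp25, ran from 6.71 over 8.49 to 9.26 in SA_15% livers and from 6.11 over 6.56 to 7.98 in Ctrl livers. Rsad2, the antiviral protein viperin, ran from 7.40 over 8.34 to 10.66 in SA_15% livers and from 7.07 over 7.44 to 8.16 in Ctrl livers. S100a11, a calcium-binding protein, ran from 9.25 over 10.46 to 10.89 in SA_15% livers and from 7.98 over 8.54 to 9.20 in Ctrl livers, without overlap. Rsad2 is known as an interferon-induced gene, yet it was not in the set of Cxcl9, and its slope on Lgals3 in SA_15% livers was 0.63 ± 0.09. Members were Cd63, Anxa2, Klf6, Uap1l1, Tnfrsf12a, Tnfrsf22, Pmm1, Zfand2a and Tceal9 besides those above.

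The same few mice held the extremes. Liver 2 was lowest for 12 of the 21 genes and liver 4 for 5, with mean deviations from the gene means of -0.93 and -0.77. Livers 7 and 11 were each highest for 5 genes and livers 1 and 6 for 4 each, and the mean deviation was 0.72 in both liver 11 and liver 6. The widest gap between neighbouring livers in Lgals3 was 0.165 of its range, and its levels filled the range without a wide break. Lgals3 also followed the second principal component of the SA_15% arrays (15.49% of variance, r = -0.95 over 15 arrays, given as a description since the component contains Lgals3).

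Across all probes, 191 (1.98%) varied with Lgals3 in SA_15% livers, 169 in the same direction (1.75%) and 22 in the opposite direction (0.228%) (limma regression, adjusted p under 0.05). Among genes that were not clustered, Sqstm1, the autophagy receptor p62, rose with Lgals3 by 0.22 ± 0.02 log2 per log2 unit (adjusted p = 4.002e-05). Slc10a3, an orphan carrier related to bile acid transporters, had a slope of 0.20 ± 0.02 (adjusted p = 0.0001734). Both calls held with every SA_15% liver left out in turn. The 6 genes that fell most firmly with rising Lgals3 had shallow slopes. They were Serhl, a serine hydrolase (-0.10 ± 0.02, adjusted p = 0.0203), Nit2, Hjurp, Ugt1a2, Mapk12 and Gpr182, with slopes from -0.18 to -0.08, and each of the 6 calls was lost after median centring and without liver 9 or 11, and those of Hjurp, Mapk12 and Gpr182 also with the runs. Steeper members of the set were Nupr1 at 0.81 ± 0.09 and Hspb1 at 0.66 ± 0.06, and Cd63, a tetraspanin of lysosomes and exosomes, had a slope of 0.39 ± 0.03. Without the 2 mice farthest from the median Lgals3 level, livers 2 and 4, 88 probes passed, and without liver 7 the count was 117.

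In Ctrl livers Lgals3 varied with other genes. There 126 probes (1.31%) passed, 122 of them in the same direction (1.26%), and 4 of them were also among the 191 of SA_15% livers. Of the other 20 members of the set, 2 passed in Ctrl livers, Klf6, a zinc-finger factor of injured liver, with a slope of 0.46 ± 0.11 (adjusted p = 0.0433) and Tnfrsf22, a decoy receptor, with a slope of 0.44 ± 0.10 (adjusted p = 0.0392). Both were marginal, since Klf6 lost its call with the runs and without any 1 of 11 Ctrl livers, and Tnfrsf22 without any 1 of 10, Ctrl liver 2 among them in each case. Of 10 interferon-responsive genes detected, 2 passed in SA_15% livers and 6 in Ctrl livers, and the genes with the smallest p in Ctrl livers were Ubd, Gvin1 and Cxcl9. Cxcl9, a chemokine for T cells, had a slope on Lgals3 of 0.05 ± 0.18 in SA_15% livers and 2.87 ± 0.28 in Ctrl livers. Cd74, the invariant chain of MHC class II, had slopes of -0.08 ± 0.12 in SA_15% livers and 1.90 ± 0.20 in Ctrl livers. Ubd, a ubiquitin-like modifier, had slopes of 0.10 ± 0.13 in SA_15% livers and 1.42 ± 0.14 in Ctrl livers.

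The difference between the 2 slopes was itself tested, and 124 probes (1.28%) passed, 109 with the lower slope in SA_15% livers. For Cxcl9 the slope difference was -2.83 (adjusted p = 0.000957) and for Cd74 it was -1.98 (adjusted p = 0.000957). Much of this rested on Ctrl liver 2, which held the highest Ctrl level of Lgals3 (8.91) and of several interferon genes. Without it 43 probes varied with Lgals3 in Ctrl livers and 13 slope differences remained called, 11 of them among the 124. Cd74 (-2.28, adjusted p = 0.0317), H2-Ea (-2.23, adjusted p = 0.0286) and the lysozyme Lyz1 (-1.70, adjusted p = 0.0286) were among the 13, and Cxcl9 was not (-2.28, adjusted p = 0.253). No member of the Lgals3 set had a slope difference that passed, the nearest being Nupr1 at 0.70 ± 0.20 (adjusted p = 0.0985). The range of Lgals3 was also unequal, 7.92 to 11.73 in SA_15% livers against 7.10 to 8.91 in Ctrl livers, so slopes in Ctrl livers rest on a narrower span.

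**Figure D4:**
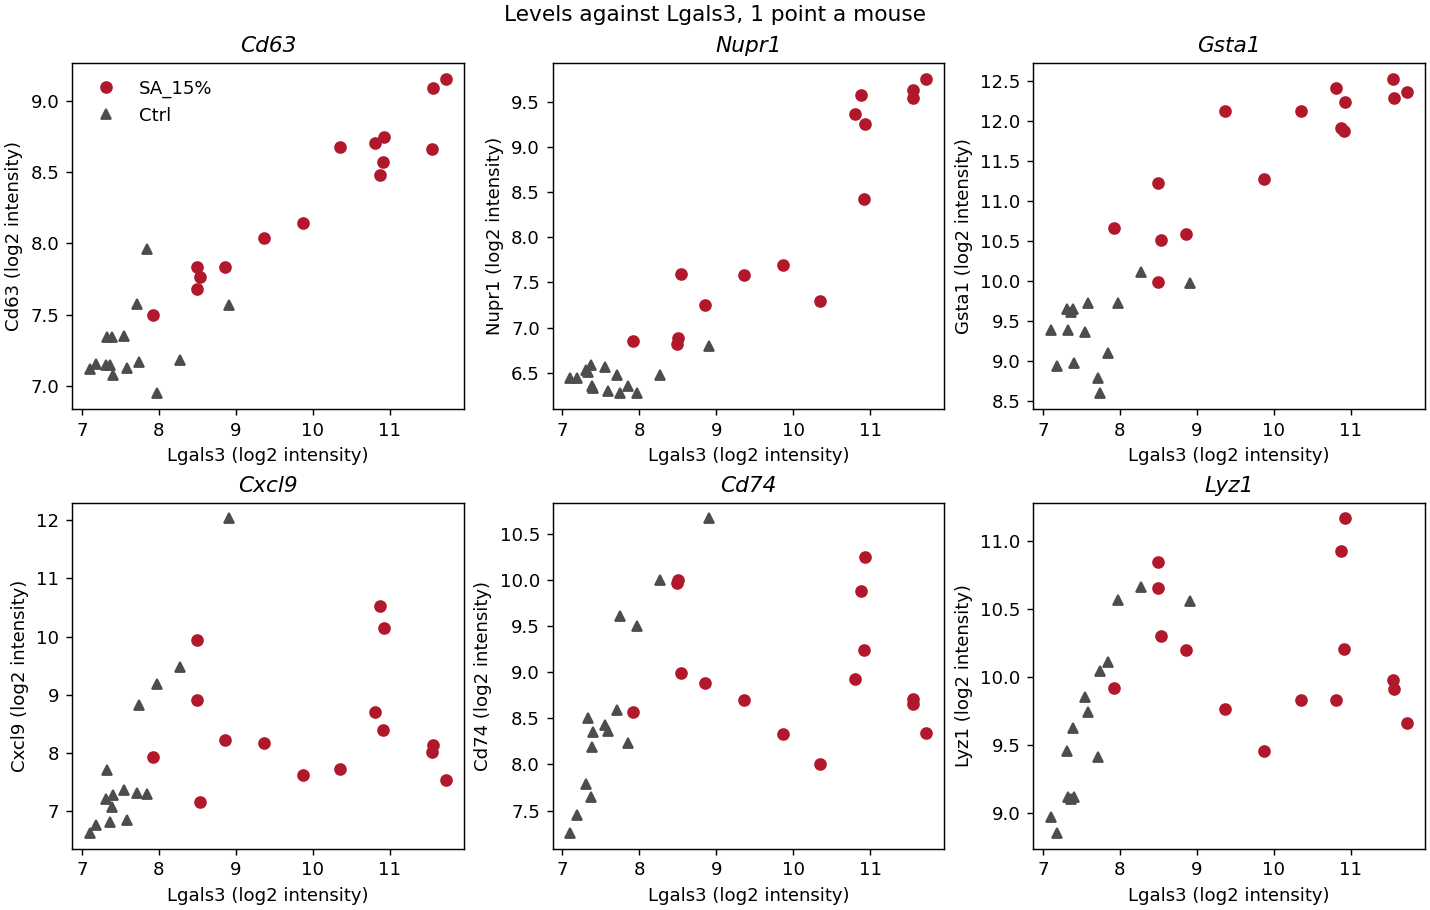
Log2 level of 6 genes (y axes) against the log2 level of Lgals3 (x axes) in each liver, SA_15% as circles and Ctrl as triangles. Cd63, Nupr1 and Gsta1 climb with Lgals3 over the SA_15% livers, whereas Cxcl9, Cd74 and Lyz1 climb over the Ctrl livers and are flat over the SA_15% livers, with slopes for Cxcl9 of 0.05 in SA_15% livers and 2.87 in Ctrl livers.

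Macrophage markers detected on all SA_15% arrays showed no detectable relation to Lgals3 in treated livers. Of 9 Kupffer cell and macrophage markers detected on all SA_15% arrays, 0 varied with Lgals3 in SA_15% livers and 8 did in Ctrl livers by the limma regression (0 of the 9 at an unadjusted p of 0.05 in SA_15% livers), and 7 had slope differences that passed. Without Ctrl liver 2 the counts were 4 and 1, the 1 being C1qb, a complement subunit made by macrophages. Their summed level was 1423 to 3226 intensity units in SA_15% livers and 1023 to 2682 in Ctrl livers. Cd5l was detected on no array. Gpnmb, also on this list, was read by a probe detected on 14 SA_15% arrays and so was not fitted. It was lowest in liver 4 (5.99) and highest in liver 7 (9.73), as was Lgals3, and its relation to Lgals3 was not tested. The part of macrophage number in the unevenness of Lgals3 was not tested beyond these counts. Further, 5 of 16 NRF2 targets and glutathione transferases, 3 of 10 genes of the integrated stress response, 5 of 14 tubulins, actins and keratins and 3 of 16 other galectins, annexins and S100 proteins varied with Lgals3 in SA_15% livers, against 1, 0, 2 and 0 in Ctrl livers. Slope differences passed for 0, 0, 1 and 0 of them (limma, with 894 of all probes at an unadjusted p of 0.05). Apart from that 1 the relations were not shown to differ between the groups, and that 1 was lost without Ctrl liver 2. Without Ctrl liver 2 the counts in Ctrl livers were 0, 0, 1 and 0. Several of these genes are members of the set, so the counts in SA_15% livers are a description. None of 11 chaperones of the endoplasmic reticulum and none of 15 cholesterol synthesis genes passed in SA_15% livers (limma), while 2 and 10 of them did at an unadjusted p of 0.05.

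Promoters of stress genes are shown because Nupr1, Chac1 and Fgf21 are known targets of ATF4 and CHOP and varied widely here. The core of the C/EBP-ATF response element (CARE), TGATGNAA on either strand, was searched in the 250 bases before each start in RefSeq's mouse promoters (GRCm38.p6). It was in 3.45% of all 32851 promoters and in 2 of 18 promoters (11.1%) found for the Lgals3 set, those of Nupr1 and Chac1. In the 80-base windows below, capitals mark the match, here read on the opposite strand.
Nupr1 (chr7:126625537-126625616, minus strand): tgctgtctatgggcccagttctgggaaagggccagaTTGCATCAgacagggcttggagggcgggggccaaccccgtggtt
Chac1 (chr2:119351013-119351092, plus strand): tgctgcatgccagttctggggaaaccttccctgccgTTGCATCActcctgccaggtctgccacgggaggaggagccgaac
Fgf21 (chr7:45615586-45615665, minus strand): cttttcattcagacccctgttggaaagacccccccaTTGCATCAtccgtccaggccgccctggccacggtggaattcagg
The match ends 102 bases before the start of Nupr1, 185 before that of Chac1 and 131 before that of Fgf21, and all 3 carry the same 8 letters. The antioxidant element TGACNNNGC was in 10.2% of all promoters and in 4 of the 18 (22.2%), those of Klf6, Pmm1, Rsad2 and Tceal9. A match is a description of these letters and no evidence of binding.

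The set of Cxcl9 held interferon gamma-induced and antigen presentation genes, and it was as tight in Ctrl livers as in SA_15% livers. The 15 genes had a mean correlation of 0.81 in both groups, and their median SD was 0.65 in SA_15% livers and 0.83 in Ctrl livers. Cxcl9 ran from 7.16 over 8.17 to 10.53 in SA_15% livers and from 6.63 over 7.30 to 12.03 in Ctrl livers. The highest Ctrl liver lay above all SA_15% livers, and the mean difference of 0.62 ± 0.42 did not pass (adjusted p = 0.248). Gbp2, a guanylate-binding protein, ran from 7.75 over 8.37 to 10.27 in SA_15% livers and from 6.90 over 7.49 to 11.57 in Ctrl livers. Igtp, an immunity-related GTPase, ran from 8.20 over 8.77 to 10.64 in SA_15% livers and from 7.43 over 8.20 to 11.32 in Ctrl livers. For both genes the Ctrl livers reached below the lowest and above the highest SA_15% liver, and the Ctrl median lay below the lowest SA_15% liver for Gbp2 and level with it for Igtp.

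Antigen presentation genes of this set followed the same mice. H2-Ab1, the beta chain of MHC class II molecule A, ran from 7.91 over 8.77 to 10.04 in SA_15% livers and from 7.31 over 8.39 to 10.46 in Ctrl livers. Cd74 ran from 8.01 over 8.89 to 10.25 in SA_15% livers and from 7.26 over 8.36 to 10.67 in Ctrl livers. Liver 1 was highest for 8 of the 15 genes and liver 15 for 6, with mean deviations of 1.15 and 0.96, and liver 13 was lowest for 6. The genes of the set that rose on average were Gbp3 (0.61 ± 0.21, adjusted p = 0.0183), Lyz1 (0.50 ± 0.19, adjusted p = 0.0359), Lpl, the lipoprotein lipase (0.48 ± 0.15, adjusted p = 0.00954), and Vsig4, a complement receptor of Kupffer cells (0.61 ± 0.17, adjusted p = 0.00541), and the other 11 did not pass. Lyz1 lost its call after median centring and without SA_15% liver 1, 2, 9 or 15. Probes of the Gbp, immunity-related GTPase, H2 and lysozyme families may read near-identical relatives.

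In Ctrl livers, which were not used to build the set, 12 of the other 14 members varied with Cxcl9, where 124 of 9654 probes did (1.28%), 120 of them in the same direction (1.24%). Without Ctrl liver 2 the count was 63. Gbp2 had a slope of 0.76 ± 0.04 in SA_15% livers and 0.78 ± 0.04 in Ctrl livers (adjusted p = 2.048e-09). Igtp had slopes of 0.69 ± 0.07 in SA_15% livers and 0.70 ± 0.04 in Ctrl livers (adjusted p = 4.854e-09). Lpl had slopes of 0.41 ± 0.07 in SA_15% livers and 0.14 ± 0.04 in Ctrl livers (adjusted p = 0.262). No slope difference passed over all probes (275 at an unadjusted p of 0.05, limma), and 1 did without Ctrl liver 2. In SA_15% livers 51 probes (0.528%) varied with Cxcl9, all in its direction, and 43 of them also did in Ctrl livers. Fpr2, a formyl peptide receptor of phagocytes, had a slope of 0.37 ± 0.05 (adjusted p = 0.0006293) and Hk3, a hexokinase of myeloid cells, one of 0.21 ± 0.03 (adjusted p = 0.0006293). The count in SA_15% livers depended on the mice with the highest Cxcl9, since 25 probes passed without liver 1 and 2 without livers 1 and 15.

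Interferon-responsive promoters are shown for 3 members of this set. A pair of GAAA cores spaced by any 2 bases, on either strand, the core of the interferon-stimulated response element, was in 2.98% of all promoters and in 7 of the 13 promoters (53.8%) found for 11 of the 15 genes. They belonged to Apol9b, with 2 promoters, and to Gbp2, Gbp3, Igtp, Irgm2 and Saa3. Capitals mark the match, on the opposite strand for Gbp2.
Gbp2 (chr3:142620569-142620648, plus strand): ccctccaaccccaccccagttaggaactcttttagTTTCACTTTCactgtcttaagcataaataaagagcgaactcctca
Igtp (chr11:58199476-58199555, plus strand): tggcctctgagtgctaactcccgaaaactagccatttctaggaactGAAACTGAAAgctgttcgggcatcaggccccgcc
Irgm2 (chr11:58214878-58214957, plus strand): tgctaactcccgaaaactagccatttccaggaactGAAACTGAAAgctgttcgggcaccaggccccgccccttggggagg
Igtp and Irgm2 are neighbours with nearly the same sequence around the match, so they are not independent cases. The gamma-activated core TTCNNNGAA was in 7.02% of all promoters and in 2 of the 13 (15.4%), again those of Igtp and Irgm2.

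Acute phase genes formed the set of Lcn2, in which the mean difference of 5 of 6 members did not pass. Orm2, an orosomucoid, ran from 11.22 over 11.67 to 13.44 in SA_15% livers and from 11.25 over 11.86 to 13.03 in Ctrl livers. Fgl1, a fibrinogen-like protein made by hepatocytes, ran from 10.51 over 11.66 to 12.72 in SA_15% livers and from 10.85 over 11.42 to 12.79 in Ctrl livers. The groups overlapped for both genes. Lcn2 differed by 0.50 ± 0.35 (adjusted p = 0.262), and of the 6 genes Slc41a2, a magnesium carrier, was the 1 that rose (0.42 ± 0.12, adjusted p = 0.00538). The mean correlation was 0.79 in SA_15% livers and 0.50 in Ctrl livers. Liver 3 was highest for 3 genes, liver 10 for 2 and liver 15 for 1.

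Of all probes, 17 (0.176%) varied with Lcn2 in SA_15% livers and 0 in Ctrl livers, where 434 passed an unadjusted p of 0.05 in the limma regression and 2 passed the adjusted one without Ctrl liver 6. Lrg1, a leucine-rich glycoprotein of the acute phase, had slopes of 0.26 ± 0.03 in SA_15% livers (adjusted p = 0.000356) and 0.24 ± 0.06 in Ctrl livers (adjusted p = 0.491). Itih4 and Itih3, heavy chains of the inter-alpha-trypsin inhibitor family, had slopes in SA_15% livers of 0.25 ± 0.03 (adjusted p = 0.002) and 0.26 ± 0.04 (adjusted p = 0.00641). Serpina3n, a protease inhibitor, had slopes of 0.24 ± 0.04 in SA_15% livers (adjusted p = 0.00693) and 0.19 ± 0.04 in Ctrl livers (adjusted p = 0.305), and the call in SA_15% livers was lost without liver 10. None of the slope differences passed (236 at an unadjusted p of 0.05), so these relations were not shown to differ between the groups. Of the 14 other acute phase proteins detected, 5 varied with Lcn2 in SA_15% livers. Orm2 and Saa4 of the set are among the 14, so this count is a description. The number of detected probes per array moved with Lcn2 (r = 0.545 and rho = 0.486 over 15 arrays, permutation p = 0.035 and 0.0687, adjusted p = 0.42 and 0.387 over 12 relations, r = 0.459 without the 2 farthest mice). With that number as a covariate 2 probes passed in the fit on Lcn2. The count was also 8 to 11 without SA_15% liver 3, 6, 8 or 10.

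Cholesterol synthesis was the theme of the largest set after that of Lgals3, although its most variable gene was the neutrophil chemokine Cxcl1. Cxcl1 ran from 8.00 over 8.90 to 10.79 in SA_15% livers and from 8.30 over 8.87 to 9.62 in Ctrl livers, with no shift of the mean that passed (0.21 ± 0.21, adjusted p = 0.455). None of the 16 other members passed in the fit on Cxcl1 in either group (597 probes at an unadjusted p of 0.05 in SA_15% livers and 825 in Ctrl livers, limma). The sterol enzymes were therefore described against Cyp51, the lanosterol demethylase, a choice made after the values were seen. Cyp51 ran from 8.34 over 9.63 to 10.96 in SA_15% livers and from 8.11 over 8.96 to 9.94 in Ctrl livers. It rose by 0.86 ± 0.21 (adjusted p = 0.00178).

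Enzymes of early and late steps of the pathway were among the members. Hmgcs1, the cytosolic HMG-CoA synthase, ran from 12.20 over 13.39 to 14.46 in SA_15% livers and from 11.86 over 12.51 to 13.54 in Ctrl livers, and it rose by 0.98 ± 0.20 (adjusted p = 0.000218). Sqle, the squalene epoxidase, ran from 9.09 over 10.26 to 11.53 in SA_15% livers and from 8.76 over 9.54 to 10.53 in Ctrl livers, and it rose by 0.80 ± 0.20 (adjusted p = 0.00249). Fdps, the farnesyl diphosphate synthase, ran from 10.58 over 11.89 to 13.00 in SA_15% livers and from 10.39 over 11.35 to 12.75 in Ctrl livers, and its difference of 0.54 ± 0.25 did not pass (adjusted p = 0.0824). For all 3 enzymes the lowest SA_15% livers lay within the Ctrl range. Liver 11 was lowest for 16 of the 17 genes of the set with a mean deviation of -1.09, and liver 3 was highest for 9 and liver 8 for 7. Of the 17 genes, 9 rose and 8 did not pass. The call for Acss2 was the weakest of the 9 (0.48 ± 0.19, adjusted p = 0.0429) and was lost after median centring and without SA_15% liver 1, 2, 3, 6, 8, 9, 10 or 12.

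In the fit on Cyp51, 45 probes (0.466%) passed in SA_15% livers and 47 (0.487%) in Ctrl livers, with 24 in both. Of the other 16 members, 12 passed in Ctrl livers. With the runs of numbers as a covariate 31 of the 45 probes passed in SA_15% livers, while 10 passed in Ctrl livers, 8 of them among the 47, and 5 of the 16 members. Sqle had slopes of 0.95 ± 0.06 in SA_15% livers and 0.78 ± 0.13 in Ctrl livers (adjusted p = 0.00383), the Ctrl call being lost without Ctrl liver 9 and kept with the runs as a covariate (adjusted p = 0.0259). Hmgcs1 had slopes of 0.90 ± 0.06 in SA_15% livers and 0.84 ± 0.10 in Ctrl livers (adjusted p = 0.000167, or 0.0259 with the runs). Both enzymes thus kept close to parallel with Cyp51 from mouse to mouse in each group. Of the 14 other genes of cholesterol synthesis and LDL uptake detected, 11 passed in SA_15% livers and 11 in Ctrl livers, both without the runs. Sqle, Fdps and other members of the set are among these 14, so the count in SA_15% livers is a description. Without livers 3 and 11, the farthest from the median, 28 probes passed in SA_15% livers.

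Chrna4, the alpha-4 subunit of nicotinic acetylcholine receptors, belonged to the same set. It ran from 6.54 over 7.86 to 8.94 in SA_15% livers and from 5.84 over 6.18 to 6.35 in Ctrl livers, without overlap, and 6 of 15 Ctrl arrays detected it. The mean difference was 1.76 ± 0.16, and the slope on Cyp51 was 0.89 ± 0.09 in SA_15% livers and 0.21 ± 0.05 in Ctrl livers. It was 1 of 3 probes (0.0311%) whose slope on Cyp51 differed. Both differences rest on Ctrl values mostly at the detection floor and are given as a description. Pltp, the phospholipid transfer protein, had slopes of 0.67 ± 0.09 in SA_15% livers and -0.38 ± 0.21 in Ctrl livers, and the difference did not pass (adjusted p = 0.238). Spink1, a trypsin inhibitor known best from the pancreas, ran from 6.80 over 8.07 to 9.24 in SA_15% livers and from 6.47 over 6.88 to 7.71 in Ctrl livers. It rose by 1.07 ± 0.19 (adjusted p = 5.938e-05). Of the other pancreas markers, Amy2a5 and Cela1 had SDs of 0.21 and 0.15 in SA_15% livers, and 7 markers were detected on no array, among them Prss2, Cpa1 and Cel.

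**Figure D5:**
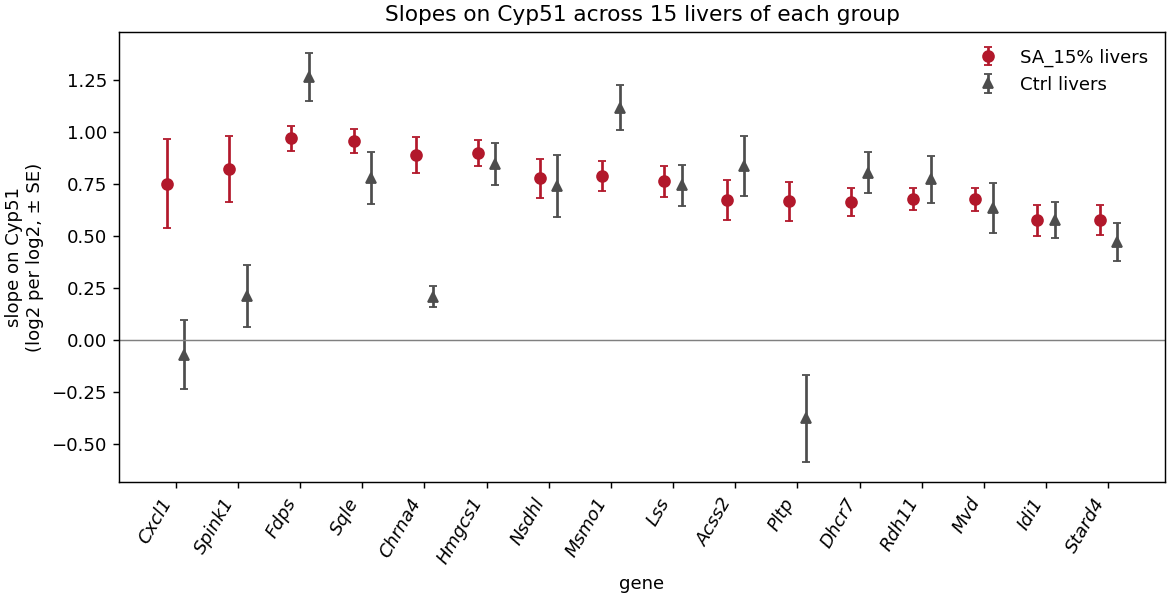
Slope of each of the 16 other genes of the Cxcl1 set on Cyp51 (y axis, log2 per log2 unit, bars are SE, n = 15 livers per group), with SA_15% as circles on the left and Ctrl as triangles on the right of each pair. The sterol enzymes have slopes of similar size in both groups, whereas Chrna4 has 0.89 in SA_15% and 0.21 in Ctrl livers and Pltp has 0.67 in SA_15% and -0.38 in Ctrl livers.

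A sterol response promoter is shown for Hmgcs1, since SREBP-2 is known to act through such elements. The core TCACNCCAC was in 1.05% of all promoters and in 1 of the 16 promoters (6.25%) found for 13 of the 17 genes, and it ended 128 bases before the start. Capitals mark the match.
Hmgcs1 (chr13:119690178-119690257, plus strand): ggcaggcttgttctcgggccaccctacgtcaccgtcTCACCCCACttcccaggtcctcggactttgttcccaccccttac
The absence of these letters from other promoters of the set says nothing of SREBP-2 at those genes.

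The set of Apoa4, the gene of apolipoprotein A-IV, also held Fgf21, Cidec, Tubb2b and Dusp1, and none of these 4 passed in the fit on Apoa4 in SA_15% livers (limma, with 1268 of all probes at an unadjusted p of 0.05). Apoa4 ran from 11.19 over 12.49 to 13.46 in SA_15% livers and from 11.02 over 11.59 to 12.35 in Ctrl livers. It rose by 0.63 ± 0.20 (adjusted p = 0.0122), a call lost after median centring, with 9 treated mice beyond the Ctrl range. Fgf21, the fasting and stress hormone, ran from 7.58 over 8.86 to 10.46 in SA_15% livers and from 7.15 over 8.11 to 8.43 in Ctrl livers, and it rose by 0.97 ± 0.19 (adjusted p = 0.000210). Cidec, which enlarges lipid droplets, ran from 7.03 over 8.90 to 9.29 in SA_15% livers and from 6.46 over 7.75 to 8.89 in Ctrl livers, and it rose by 1.15 ± 0.22 (adjusted p = 0.000137). Tubb2b, a beta-tubulin, rose by 1.22 ± 0.15 (adjusted p = 1.794e-07), and Dusp1, a phosphatase of MAP kinases, differed by 0.05 ± 0.14 (adjusted p = 0.811). Liver 2 was lowest for all 5 genes, with a mean deviation of -1.25, and liver 11 was highest for 4.

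Slopes on Lgals3 in SA_15% livers passed for 3 genes of this set, of which Tubb2b (0.28 ± 0.07, adjusted p = 0.0427) lost its call with the runs of numbers as a covariate and without any 1 of 9 SA_15% livers. Fgf21 had a slope on Lgals3 of 0.38 ± 0.08 in SA_15% livers (adjusted p = 0.0175) and 0.19 ± 0.24 in Ctrl livers, and Apoa4 had slopes of 0.38 ± 0.09 in SA_15% livers (adjusted p = 0.0378) and 0.38 ± 0.21 in Ctrl livers. The call for Apoa4 was lost with the runs of numbers as a covariate (0.29, adjusted p = 0.0884) and without any 1 of 11 SA_15% livers, and that for Fgf21 without livers 2 and 4 together. Of all probes, 42 (0.435%) varied with Apoa4 in SA_15% livers, 22 of them in the same direction (0.228%), and 57 (0.59%) in Ctrl livers, with 0 in both. With the runs of numbers as a covariate 3 probes passed in SA_15% livers and 0 in Ctrl livers (884 and 560 at an unadjusted p of 0.05, limma). The 42 calls also depended on single mice, and the count was 0 without liver 2, 2 without liver 15, 3 without liver 12, 6 without liver 3, 10 to 19 without liver 7, 9, 11 or 14 and 77 without liver 1. Gsta1 was among the 42 with a slope of 0.93 ± 0.17 (adjusted p = 0.0306), as was Anxa5, the phosphatidylserine-binding annexin, with 0.36 ± 0.06 (adjusted p = 0.0306), and both were lost without liver 2, 3 or 15. With the runs Gsta1 lost its call (adjusted p = 0.159). No slope difference passed (924 at an unadjusted p of 0.05, limma). In Ctrl livers Fgf21 was the 1 of the other 4 members that passed, with a slope of 0.83 ± 0.17 (adjusted p = 0.0355), a call lost without any 1 of 9 Ctrl livers and with the runs (0.39, adjusted p = 0.899).

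Elovl6 had the smallest set, with Me1, Aqp8 and Csrp3. Elovl6 ran from 9.59 over 10.72 to 12.12 in SA_15% livers and from 9.11 over 10.31 to 11.15 in Ctrl livers, and the difference of 0.39 ± 0.21 did not pass (adjusted p = 0.138). Me1, the malic enzyme that supplies NADPH, ran from 9.10 over 9.76 to 11.05 in SA_15% livers and from 9.26 over 9.65 to 10.24 in Ctrl livers. Aqp8, a water and ammonia channel, ran from 9.69 over 10.42 to 11.33 in SA_15% livers and from 8.67 over 9.04 to 9.58 in Ctrl livers, without overlap, and rose by 1.34 ± 0.12 (adjusted p = 7.493e-10). Liver 8 was highest for 3 of the 4 genes. Of all probes, 131 (1.36%) varied with Elovl6 in SA_15% livers and 8 (0.0829%) in Ctrl livers, but no slope difference passed (419 at an unadjusted p of 0.05, limma). With the runs of numbers as a covariate 0 passed in SA_15% livers (539 at an unadjusted p of 0.05, limma) and 6 in Ctrl livers, so no relation to Elovl6 was detectable among treated mice within runs. The count of 131 was 31 to 82 without liver 1, 6, 11, 12, 13 or 14 and 204 without liver 8. Acaca, the acetyl-CoA carboxylase, had slopes of 0.45 ± 0.06 in SA_15% livers (adjusted p = 0.000850) and 0.58 ± 0.09 in Ctrl livers (adjusted p = 0.0114). Acly, the ATP citrate lyase, had slopes of 0.42 ± 0.06 in SA_15% livers (adjusted p = 0.00303) and 0.73 ± 0.07 in Ctrl livers (adjusted p = 0.000108). Pla2g12a, a phospholipase A2, went the other way with -0.45 ± 0.05 in SA_15% livers (adjusted p = 0.000600) and -0.51 ± 0.10 in Ctrl livers (adjusted p = 0.0547). With the runs the slopes in SA_15% livers were 0.44 for Acaca (adjusted p = 0.797), 0.32 for Acly (0.812) and -0.53 for Pla2g12a (0.26), and in Ctrl livers Acaca (0.80, adjusted p = 0.000265) and Acly (0.62, adjusted p = 0.00342) kept their calls. Without the runs, of the other 12 fatty acid synthesis genes detected, 6 passed in SA_15% livers and 3 in Ctrl livers. Me1 of the set is among the 12, so the count in SA_15% livers is a description.

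Of the 20 most variable genes, 4 belonged to no set. Cyp4a12b, an omega-hydroxylase of the male pattern, ran from 6.51 over 7.75 to 9.76 in SA_15% livers and from 8.09 over 9.94 to 10.45 in Ctrl livers. It fell by 1.66 on the log2 scale (SE 0.28, adjusted p = 2.364e-05), with 10 of 15 SA_15% livers below every Ctrl liver, and liver 9 was highest and liver 11 lowest. Its probe may also read Cyp4a12a. Rgs16, a regulator of G protein signalling that follows feeding and the clock, ran from 9.06 over 9.97 to 11.31 in SA_15% livers and from 9.97 over 11.40 to 12.13 in Ctrl livers, and fell by 1.43 (SE 0.24, adjusted p = 1.937e-05). Cyp7a1, the rate-limiting enzyme of bile acid synthesis, ran from 8.81 over 9.96 to 11.64 in SA_15% livers and from 8.77 over 10.64 to 12.35 in Ctrl livers, and Krt23, a keratin of stressed hepatocytes and bile ducts, from 7.60 over 8.99 to 9.93 in SA_15% livers and from 7.46 over 8.65 to 10.23 in Ctrl livers. Neither mean passed (adjusted p = 0.108 and 0.301), and both ranges overlapped.

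Pathways differed in how many of their genes reached the 686 most variable. All of the 20 respiratory chain and ATP synthase genes and all of the 17 ribosomal protein genes detected stayed below, with median SDs of 0.09 and 0.11. In contrast, 14 of 15 cholesterol synthesis genes, 11 of 13 fatty acid synthesis genes, 9 of 10 interferon-responsive genes and 11 of 14 tubulins, actins and keratins were among the 686. Clock and clock output genes reached it in 9 of 16 cases, with Dbp, a clock-driven factor, at an SD of 0.58 in SA_15% livers and 0.46 in Ctrl livers. Of drug-metabolizing Cyp enzymes it was 13 of 22, with Cyp2b10, the classic target of CAR, at 0.59 in SA_15% livers and 0.62 in Ctrl livers. Bile acid genes gave 5 of 14, with Slco1a4, an anion carrier, at 0.62 in SA_15% livers and 0.39 in Ctrl livers. Immediate early genes gave 7 of 9, with Egr1 at 0.68 in SA_15% livers and 0.84 in Ctrl livers. These are counts with no test.

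Markers of other cell types varied to different extents. Acta2, the smooth muscle actin of vessels and activated stellate cells, ran from 7.14 over 7.70 to 9.69 in SA_15% livers and from 7.14 over 7.66 to 10.58 in Ctrl livers. Among endothelial markers, 3 of 9 were among the 686, led by Lyve1 with SDs of 0.38 in SA_15% livers and 0.44 in Ctrl livers. Of 4 red blood cell markers 1 was among the 686, and 1 had the larger SD in SA_15% livers. Hba-a1, a haemoglobin chain, ran from 13.38 to 14.32 in SA_15% livers and from 12.31 to 13.55 in Ctrl livers. None of 9 neutrophil markers was detected on all SA_15% arrays, and the T and B cell markers Cd8a and Cd79a and the adipocyte markers Fabp4, Retn and Plin1 were detected on no array.

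Some genes lay outside the Ctrl range in every treated mouse. For 44 of the 6864 genes every SA_15% liver did so on the same side, and the mean difference passed. Of these, 8 were among the 100 most variable: Nupr1, Cbr3, Srxn1, Chrna4, S100a11, Uap1l1, Aqp8 and Tceal9. The margin could be small. The lowest SA_15% and the highest Ctrl liver were at 6.81 and 6.80 for Nupr1 and at 9.25 and 9.20 for S100a11. The tightest of the rest of the 44 was Os9, a lectin of endoplasmic reticulum quality control. It was at 10.24 to 10.50 in SA_15% livers and 10.57 to 11.01 in Ctrl livers (SD 0.07 in SA_15% and 0.10 in Ctrl livers). Sardh, the sarcosine dehydrogenase, was at 8.74 to 9.09 in SA_15% livers and 9.23 to 10.00 in Ctrl livers. Gstm1, a mu-class glutathione transferase, was at 13.77 to 14.14 in SA_15% livers and 13.00 to 13.39 in Ctrl livers (SD 0.13 in SA_15% livers), in contrast to the alpha-class Gsta1 with an SD of 0.83. Pck1, the gluconeogenic PEP carboxykinase, was at 7.89 to 8.72 in SA_15% livers and 8.84 to 9.66 in Ctrl livers. Its SD of 0.21 in SA_15% livers was above the median SD over genes of 0.13 there, so its levels were separate from Ctrl but not especially even. Gstm1 and Pck1 were named after their values were seen.

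The SA_15% arrays also differed in the number of probes detected. The first principal component held 20.16% of their variance and fell with the number of probes detected (r = -0.742, rho = -0.689, permutation p = 0.00128 and 0.00541, adjusted p = 0.00768 and 0.0325 over 6 relations). Without the 2 arrays farthest from the median the correlation was -0.82. After median centring the size of r was 0.361. With mean intensity it was r = -0.523 and rho = -0.439 (permutation p = 0.045 and 0.105, adjusted p = 0.135 and 0.316), and r = -0.248 without the 2 farthest arrays. None of 12 relations of the 6 leading genes with mean intensity or detected probes passed after adjustment. For Elovl6 and detected probes r was 0.275 and rho 0.443 (permutation p = 0.321 and 0.101, adjusted p = 0.613 and 0.387), and r was 0.738 without the 2 mice farthest from the median.

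Probes near the detection limit were looked at apart. Of 4852 probes detected on some but not all SA_15% arrays, 11 had an SA_15% array more than 1 log2 unit above the highest Ctrl array, and 12 had a Ctrl array that far above the highest SA_15% array. The 5 genes named next were picked for the size of this excess in SA_15% livers. Gpnmb, a glycoprotein of lipid-laden macrophages, ran from 5.99 over 7.70 to 9.73 in SA_15% livers, against a highest Ctrl value of 6.37, and was detected on 14 SA_15% and 3 Ctrl arrays. Atf3, a stress-induced transcription factor, reached 8.20 in SA_15% livers (median 6.51) against 6.19 in Ctrl livers. Asns, the asparagine synthetase, reached 8.18 in SA_15% livers (median 6.71) against 6.37 in Ctrl livers, and Psat1, an enzyme of serine synthesis, reached 7.78 in SA_15% livers (median 6.79) against 6.16 in Ctrl livers. Saa2, an acute phase serum amyloid, reached 9.12 in SA_15% livers (median 6.33) against 7.45 in Ctrl livers, with 3 SA_15% livers above the Ctrl range, and its probe may read Saa1. Of the 11 probes, 6 were highest in liver 7, a liver that was also highest for Lgals3.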

How the data were processed

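Liver RNA of 15 SA_15% and 15 Ctrl mice was hybridised to MouseRef-8 BeadChips. The deposited tables hold one average signal intensity per probe and array, summarised by the authors in the scanner software (GenomeStudio 2009.2 in the submitters' processing notes) without normalization or background correction. Beside each intensity the authors deposited a detection p-value from the negative-control beads. Intensities that the authors had themselves quantile normalized came in another file and served as an alternative. BeadChip positions are not given in the sources used here, so chips could not be modelled.

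All 30 arrays were quantile normalized together and log2 transformed (limma 3.58.1, R 4.3.3). Probes with detection p under 0.05 on all 15 SA_15% arrays were kept. Gene names came from the platform annotation, with 23962 symbols updated, and 1719 of 25697 probes had none. Group means, distances from the group median and regressions on a leading gene (separately in each group, and with an interaction for the slope difference) were fitted with lmFit and eBayes over all kept probes, with Benjamini-Hochberg adjustment and 0.05 as the limit. The study's methods used analysis of variance with a pooled error, for which limma stands in. Relations of array measures were tested with 100000 permutations, two-sided. Scripts were tested on simulated data. Each array is 1 mouse, so p-values set a difference or slope against the variation between mice, in which that between arrays is included. The number of arrays limits the precision.

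Named genes were the 20 with the largest SD, the 10 most variable members of each set, up to 6 genes in each direction per leading gene, up to 3 per pathway list, the 5 with the smallest p for spread in each direction and the 5 partly detected probes with the largest excess. Fits on Cxcl1, Apoa4, Elovl6 and Cyp51 and the covariate of runs of 5 liver numbers were added after seeing the data. The members and lists were chosen with earlier results of these data known. Alternatives were another background correction, scaling, detection rule, prior, covariate, rank regression, clustering height and the omission of each mouse.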

Additional observations from a re-analysis of the deposited data

Results flagged for a closer look

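The slope on Lgals3 differed between SA_15% and Ctrl livers for 16 genes named here or related to them (limma interaction, adjusted over 9654 probes). The differences, SA_15% minus Ctrl, were -2.83 for Cxcl9 (adjusted p = 0.000957), -2.24 for Gbp2 (0.000957), -1.93 for Igtp (0.00355), -1.32 for Ubd (0.0230), -1.81 for H2-Ab1 (0.00315) and -1.98 for Cd74 (0.000957). They were -1.68 for H2-Eb1 (adjusted p = 0.00158), -1.87 for H2-Ea (0.000957), -1.78 for Irgm2 (0.000957), -1.26 for Gbp3 (0.00355), -1.18 for Lyz1 (0.00544), -1.13 for Saa3 (0.00396) and -1.01 for Vsig4 (0.0143). Outside the clustered genes they were -1.09 for Fpr2 (adjusted p = 0.00202), -0.51 for Hk3 (0.0181) and 0.26 for the RNA-processing factor Cpsf7 (0.0345). Without Ctrl liver 2, only Cd74, H2-Ea and Lyz1 of the 13 members of the Cxcl9 set in this list kept the call. Fpr2 (-1.14, adjusted p = 0.131), Hk3 and Cpsf7 also lost it. Ubd and Saa3 lost the call with runs of 5 liver numbers as a covariate. On Cyp51 the slope of Chrna4 differed by 0.68, which rests on Ctrl values mostly at the detection floor.

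Signals also lay in probes outside the comparisons, detected on some SA_15% arrays only. Of these probes 11 had an SA_15% array over 1 log2 unit above the highest Ctrl array, and 12 had a Ctrl array that far above the highest SA_15% array. The highest SA_15% liver exceeded the highest Ctrl liver by 3.36 log2 units for Gpnmb, 2.01 for Atf3, 1.81 for Asns, 1.67 for Saa2 and 1.62 for Psat1. SA_15% livers above every Ctrl liver numbered 14 for Gpnmb, 11 for Atf3, 11 for Asns, 3 for Saa2 and 13 for Psat1.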

How the results depend on the processing

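No called result changed direction, while 4 set members without a call did after median centring. Of the 20 most variable genes, 13 stayed by median absolute deviation, and 15 to 20 with single mice left out. The count of 8 probes that differed in spread was 1 with neqc background correction, 4 for probes detected on all 30 arrays, 14 over all probes, 34 with deviations from the mean, 3 with a trended robust prior and 25 with an F test of variances, and 4 to 18 with 1 mouse left out. Probes varying with Lgals3 (191) numbered 659 after median centring, 88 without the 2 farthest mice and 117 to 207 with 1 mouse left out. For Lcn2 (17) they were 10 after median centring, 10 with ranks, 2 with detected probes as covariate, 5 without the 2 farthest mice and 8 to 20 with 1 left out. For Cxcl9 (51) they were 2 without the 2 farthest mice and 25 to 74 with 1 left out, and for Cyp51 (45) 28 and 31 to 57. In Ctrl livers, leaving out 1 mouse gave 43 to 134 for Lgals3, 0 to 2 for Lcn2 and 63 to 135 for Cxcl9. Slope differences were 13 to 139 for Lgals3, 0 to 1 for Cxcl9 and 0 to 0 for Lcn2. Group means gave 3588 to 3735 calls. The first component's r of 0.742 in size with detected probes was 0.361 after median centring. With runs of 5 liver numbers as a covariate, 30 probes varied with Lcn2 and 54 slope differences on Lgals3 passed. The causes were not tested.

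Nupr1 and Tnfrsf12a lost the call for spread after neqc and median centring, Cbr3 after neqc, and Srxn1 with the trended prior. Livers of equal number deviated together with r from -0.073 to 0.404 (median 0.175), over 0.1 in 10 of 15 pairs. Of the 15 livers, 5 were closest to their own number. Livers of equal number were thus partly alike, and what they share was not tested. The number was no block in the main fits. The fit with the replicate block called 10 probes for spread and 4109 for the mean. The limits are 1 array per mouse, unknown chip positions, no lean mice, and levels near background in Ctrl livers for Cbr3, Nupr1 and Chrna4.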
